A study of Homo sapiens with 6 samples.

Results

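The oxidative stress genes described here are NFE2L2, which encodes the transcription factor NRF2, its inhibitor KEAP1, the NRF2 target genes NQO1, HMOX1, GCLC, GCLM, TXNRD1 and SRXN1, and the superoxide dismutase genes SOD1 and SOD2. They were chosen by name, and all 10 were found among the 19973 genes of the deposited table. OVCAR3, a cell line established from a human ovarian carcinoma, was sequenced (mRNA) after transfection with shNC (genotype WT, a control hairpin) or shNUF2 (genotype NUF2 knockdown, 1 hairpin against the kinetochore gene NUF2), with 3 libraries per group. The NUF2 hairpin was carried by a vector with a puromycin marker, and the study describes stable OVCAR3 cells with NUF2 silencing, without naming how they were selected. The labels do not say whether the libraries of a group came from separate transfections or cultures, so that the p-values measure only the spread between these libraries, which may be technical.

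NRF2 is a transcription factor that KEAP1, the substrate adaptor of a CUL3 ubiquitin ligase, holds at a low level by directing its degradation. When electrophiles or oxidants modify KEAP1, NRF2 escapes, pairs with a small MAF protein and binds antioxidant response elements near genes for glutathione synthesis, NADPH supply and detoxification, while BACH1 competes for the same elements as a repressor. Much of this control acts on the NRF2 protein, which was not measured here. Superoxide dismutases turn superoxide into hydrogen peroxide, SOD1 mainly in the cytosol and SOD2 in the mitochondrial matrix.

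The antioxidant response element has the core TGACNNNGC, and RefSeq promoter windows on GRCh38.p14, from 250 bases before to 50 bases after a gene start, were searched for it on both strands. Of the 10 genes, 8 (all but HMOX1 and SOD1) had a window, and 3 of them, GCLM, TXNRD1 and KEAP1, held the core in at least 1 window. The core was found in 13.3% of all 35116 windows and in at least 1 window of 16.1% of genes. Bases outside these windows were not searched, so a gene without a match here may hold the core farther from its start. Below are the sites of these 3 genes whose match ends in AAGC, shown because GCLM and KEAP1 fell in the RNA data described below while TXNRD1 did not pass the test. Capitals mark the 9 bases of the core with 22 bases on each side, all on the strand on which the core reads 5′ to 3′.
GCLM, chr1:93909434-93909486, plus strand, 26 bases before the start: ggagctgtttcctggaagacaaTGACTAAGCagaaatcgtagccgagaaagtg
TXNRD1, chr12:104286908-104286960, minus strand, 94 bases before the start: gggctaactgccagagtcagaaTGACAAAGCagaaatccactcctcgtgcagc
KEAP1, chr19:10502772-10502824, plus strand, 23 bases before the start: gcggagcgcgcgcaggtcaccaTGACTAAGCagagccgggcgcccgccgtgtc
GCLM and KEAP1 shared the run ATGACTAAGCAGA of 13 bases, and GCLM and TXNRD1 shared AAGCAGAAATC of 11 bases. TXNRD1 and KEAP1 shared a run of 7 bases. The sites were chosen for the core and its ending in AAGC, so part of each run was shared by selection. TXNRD1 held 2 more matches, both at another start, and KEAP1 held 1 more. The starts are those of the RefSeq windows. By the deposited gene positions given below, the KEAP1 and TXNRD1 sites shown lie within the genes, and the GCLM stretch shown overlaps the start of its gene. A match describes the letters only, and binding of NRF2 was not measured.

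Total counts per library were between 13057534 and 16995452, and 12874 genes had enough counts to be tested. For the targeted gene NUF2 the shNC libraries held 903, 1096 and 1092 reads and the shNUF2 libraries 281, 290 and 384, a log2 change of -1.51 (standard error 0.08). Of the epithelial and ovarian carcinoma markers, MSLN (153 FPKM with shNC), KRT7 (169) and KRT8 (49.5) were well measured, whereas PAX8 (1.39), EPCAM (1.41), MUC16 (1.12) and CDH1 (0.23) were low and WT1 had at most 7 reads in any library. The cells are named OVCAR3 by the labels and the study, and their identity was not tested. FPKM is the read count scaled by gene length and by the library total. Leukocyte and endothelial markers were low. The 5 leukocyte genes summed to 0.64 to 0.96 FPKM with shNC and 1.59 to 2.4 with shNUF2, and the 4 endothelial genes to 0.23 to 0.44 and 0.46 to 0.69. For PTPRC, the general leukocyte marker, 0, 1 and 0 reads were counted in shNC and 6, 11 and 6 in shNUF2. The 5 fibroblast genes summed to 9.44 to 10.1 FPKM with shNC and 7.31 to 8.06 with shNUF2, nearly all of it from COL1A1, which fell by 0.39 on the log2 scale, while DCN rose by 1.22 from 65, 40 and 67 reads in shNC to 130, 104 and 117 in shNUF2. Of the 3 fibroblast genes tested, 1 rose and 1 fell, where 33.9% of all genes tested rose and 33.8% fell by the rule given below. The part of other cell types in the results below was not tested.

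The 10 genes did not move as a group after NUF2 knockdown. SOD2 and HMOX1 were about 4-fold higher with shNUF2, NQO1 fell to 0.46 of its shNC level, NFE2L2 and KEAP1 fell to 0.63 and 0.69, GCLC and GCLM moved by small amounts in opposite directions, and TXNRD1 and SOD1 did not pass the test. SRXN1 had too few reads to be tested. In bulk RNA a change in the share of cells that express a gene and a change in RNA per cell cannot be told apart. Each comparison used edgeR's quasi-likelihood test, with a gene called at a Benjamini-Hochberg adjusted p under 0.05 over all genes tested. By this rule 3 of the 9 genes tested rose, where 33.9% of all genes tested rose, and 4 fell, where 33.8% of all genes tested fell, so that 7 of 9 were called in either direction against 67.6%. With a log2 fold change beyond 1 in size and an unadjusted p under 0.05, a reading of the study's fold change threshold on the log2 scale, which its methods do not name, 2 of the 9 were higher (9.41% of all genes tested) and 1 was lower (4.16%), 3 in all against 13.6%. The groups did not overlap in 7 of the 9, against 70.6% of all genes tested. The median log2 fold change was -0.01 over the 9 genes and -0.01 over all genes tested. The shares called by adjusted p and the medians were close to those of all genes tested, whereas the shares past the log2 threshold, resting on 3 genes, were above them.

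**Figure D1:**
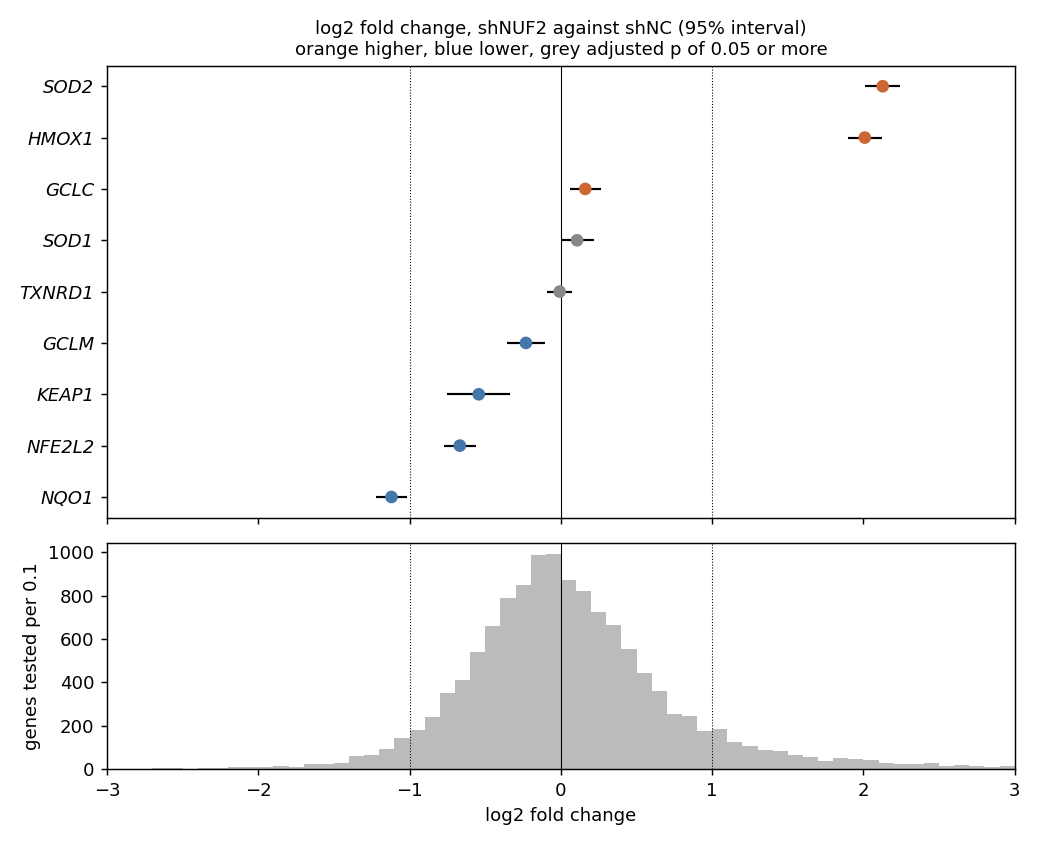
The upper panel plots the log2 fold change of shNUF2 against shNC with its 95% interval for the 9 genes tested, and the lower panel the number of genes tested per 0.1 of log2 fold change, drawn from -3 to 3. SOD2 and HMOX1 sit at 2.13 and 2.01, NQO1 at -1.12, and the other 6 genes lie between the dotted lines at -1 and 1.

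Reads of NFE2L2 (ENSG00000116044, GRCh38 chromosome 2, 177227595 to 177392697) numbered 1603, 1914 and 2045 in the shNC libraries against 1012, 927 and 1125 in the shNUF2 libraries. Per length this was 20.03, 21.5 and 21.2 FPKM with shNC and 12.9, 12.5 and 13.03 with shNUF2. All 3 shNUF2 libraries lay below all 3 shNC libraries, and NFE2L2 fell by 0.67 on the log2 scale (standard error 0.05, edgeR adjusted p = 7.82e-12). In GENCODE release 29, a sense-overlapping transcript not listed in the deposited table covers 17.6% of the exonic bases of NFE2L2.

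KEAP1 (ENSG00000079999, chromosome 19 from 10486125 to 10503558) was the lowest of the 9 genes tested, with 9.04, 9.27 and 7.51 FPKM with shNC and 5.66, 5.14 and 6.38 with shNUF2. All 3 shNUF2 libraries again lay below all 3 shNC libraries, and KEAP1 fell by 0.54 on the log2 scale (standard error 0.10, edgeR adjusted p = 3.23e-05). The factor and its inhibitor therefore both had less mRNA with shNUF2. The ratio of NFE2L2 to KEAP1 within each library, which no scaling of the libraries can change, was 2.21, 2.32 and 2.83 with shNC and 2.29, 2.43 and 2.04 with shNUF2. These ratios overlapped between the groups, and the difference of the log2 ratio was -0.12 (standard error 0.13, exact two-sided permutation test, p = 0.5).

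The partners and competitors of NRF2 moved in both directions. Of a list of 12 such genes, 11 were tested, and 4 rose and 3 fell, against 33.9% and 33.8% of all genes tested. This list and the lists below were chosen with earlier results of these data known. BACH1, which represses HMOX1 and other genes with antioxidant response elements, rose from 11.7 to 24.2 FPKM (log2 fold change 1.08, standard error 0.05), from 1326, 1386 and 1489 reads in shNC to 2627, 2319 and 2859 in shNUF2. Among the small MAF genes, MAFF rose by 1.15 and MAFG by 0.25 on the log2 scale, and MAFK, the most abundant of them at 191 FPKM with shNC, fell to 113 (log2 fold change -0.72, standard error 0.04). SQSTM1, whose product p62 sequesters KEAP1, rose by 0.50 (standard error 0.04). NFE2L1 and NFE2L3, relatives of NFE2L2, fell by 0.41 and 0.32. The ligase subunits CUL3 (-0.06) and RBX1 (-0.14) did not pass the test, with adjusted p of 0.573 and 0.146 by edgeR.

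NQO1 (ENSG00000181019, chromosome 16 from 69706996 to 69726668) encodes a quinone reductase that is widely used as a readout of NRF2 activity. Its reads numbered 3101, 3392 and 4064 in shNC against 1312, 1323 and 1617 in shNUF2. Its level was 75.7 ± 4.18 FPKM with shNC and 34.0 ± 1.87 with shNUF2 (SD, n = 3 libraries each), with no overlap. The log2 fold change of -1.12 (standard error 0.05, 95% interval -1.23 to -1.01, adjusted p = 1.74e-16 by edgeR) was the largest fall of the 9 genes and the 364th lowest of all genes tested. The annotation places an antisense gene over 17.7% of the exonic bases of NQO1, and whether counting used strand is not given in the sources used here.

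HMOX1 (ENSG00000100292, chromosome 22 from 35380361 to 35394214) encodes heme oxygenase-1, the inducible enzyme that breaks heme down to biliverdin, iron and carbon monoxide. Its reads numbered 774, 817 and 834 in shNC against 2928, 2564 and 3075 in shNUF2. Its level was 22.5 ± 1.25 FPKM with shNC and 88.3 ± 3.49 with shNUF2 (SD, n = 3 each), a log2 fold change of 2.01 (standard error 0.05, 95% interval 1.90 to 2.12, adjusted p = 2.51e-21 by edgeR). The highest shNC library was at 23.8 FPKM and the lowest shNUF2 library at 85.2.

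HMOX1 and NQO1, both targets of NRF2, thus moved in opposite directions in the same libraries. HMOX1 stood at 0.322, 0.31 and 0.264 of NQO1 per length in the shNC libraries and at 2.88, 2.5 and 2.45 times NQO1 in the shNUF2 libraries, an 8.74-fold difference. The order of these 2 genes was reversed in every library (difference of log2 ratio 3.13, standard error 0.11, two-sided exact permutation p = 0.1, which is the lowest that 3 libraries against 3 allow). Over the 6 ratios compared in this way, which were chosen after the values were seen, the Benjamini-Hochberg adjusted p of this exact test was 0.12 for the 5 ratios whose groups did not overlap. The constitutive heme oxygenase HMOX2 was at 11.2 FPKM with shNC and 12.7 with shNUF2 (log2 fold change 0.21, standard error 0.08). The ratio of HMOX1 to HMOX2 rose from 2.16, 2.07 and 1.80 with shNC to 7.77, 5.96 and 7.24 with shNUF2, without overlap (exact permutation test, p = 0.1).

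**Figure D2:**
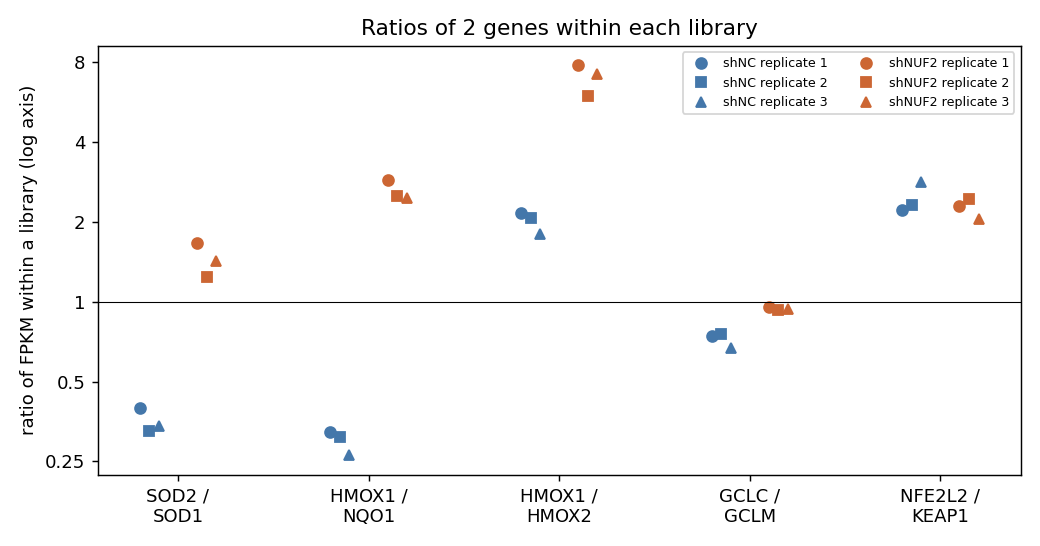
Each point is the ratio of the FPKM of 2 genes within 1 library on a log axis, for shNC (blue) and shNUF2 (orange) replicates 1 to 3, with the line at 1 marking equal levels. SOD2 over SOD1 and HMOX1 over NQO1 cross from below 1 in every shNC library to above 1 in every shNUF2 library, and NFE2L2 over KEAP1 overlaps between the groups.

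Glutathione is made by glutamate-cysteine ligase, whose catalytic subunit is encoded by GCLC (ENSG00000001084, chromosome 6 from 53497341 to 53616970) and whose modifier subunit is encoded by GCLM (ENSG00000023909, chromosome 1 from 93885199 to 93909456). GCLC had 11.1, 12.0 and 12.3 FPKM with shNC and 13.1, 12.8 and 12.6 with shNUF2. GCLC rose by 0.16 on the log2 scale (standard error 0.05, edgeR adjusted p = 0.00629). The call rested on shNC replicate 1, without which edgeR gave a log2 change of 0.12 with an adjusted p of 0.0525.

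GCLM had 14.95, 16.0 and 18.3 FPKM with shNC and 13.7, 13.8 and 13.5 with shNUF2, and fell by 0.23 on the log2 scale (standard error 0.06, adjusted p = 0.00184 by edgeR). The highest library was shNC replicate 3, and without it the log2 change was -0.15. The shNC libraries were more spread than the shNUF2 libraries for GCLM, with an SD of 1.73 against 0.18 FPKM. The ratio of GCLC to GCLM was 0.741, 0.752 and 0.669 with shNC and 0.953, 0.931 and 0.938 with shNUF2, 1.31-fold higher and without overlap (exact two-sided permutation test, p = 0.1).

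TXNRD1 (ENSG00000198431, chromosome 12 from 104215779 to 104350307), the cytosolic thioredoxin reductase, was the most abundant of the 10 genes per length in both groups. It had 92.4, 99.0 and 93.3 FPKM with shNC and 92.6, 91.6 and 91.6 with shNUF2, and the groups overlapped. The log2 fold change was -0.01 with a 95% interval of -0.09 to 0.08 (adjusted p = 0.874 by edgeR). NQO1 and TXNRD1 therefore differed in their response, and the ratio of TXNRD1 to NQO1 rose from 1.25, 1.36 and 1.16 with shNC to 2.89, 2.69 and 2.56 with shNUF2 (exact permutation test, p = 0.1).

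SRXN1 (ENSG00000271303, chromosome 20 from 646615 to 653200) encodes sulfiredoxin, which restores overoxidized peroxiredoxins. Only 0, 1 and 4 reads were counted in shNC and 3, 0 and 7 in shNUF2, and the gene was removed by the filter on low counts. In GENCODE release 29, 85% of its exonic bases are shared with AL121758.1, a coding gene on the same strand that is also listed in the deposited table, and that gene had at most 3 reads in any library. How reads on both genes were counted is not given in the sources used here, and these counts cannot be read as the level of SRXN1 mRNA.

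SOD2 (ENSG00000112096, chromosome 6 from 159669069 to 159762529) encodes the manganese superoxide dismutase of mitochondria. Its reads numbered 5198, 4873 and 5471 in shNC against 20679, 17270 and 21835 in shNUF2. Its share of all counted reads went from 0.0333% to 0.142%. The level was 18.4 ± 1.69 FPKM with shNC and 78.2 ± 4.91 with shNUF2 (SD, n = 3 each), and the log2 fold change of 2.13 (standard error 0.06, 95% interval 2.01 to 2.24, adjusted p = 2.33e-21 by edgeR) was the largest of the 9 genes and the 315th highest of all genes tested. The lowest shNUF2 library, at 72.9 FPKM, lay above the highest shNC library, at 20.3.
The deposited length of SOD2 is 18144 bp, the longest of the 10 genes, so that its FPKM is low for its number of reads. GENCODE release 29 holds 2 gene models of this name, which share 5.1% of the exonic bases of the one measured here, and WTAP on the opposite strand overlaps 1.8% of them. The annotation also lists 1 SOD2 pseudogene with which reads can be shared. WTAP had a log2 fold change of 0.57 (standard error 0.07).

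SOD1 (ENSG00000142168, chromosome 21 from 31659666 to 31668931), the copper and zinc enzyme of the cytosol, had 51.3, 52.6 and 52.0 FPKM with shNC and 49.7, 58.7 and 55.4 with shNUF2. The shNUF2 libraries lay on both sides of the shNC libraries, and the log2 fold change was 0.11 (95% interval -0.002 to 0.22, adjusted p = 0.0759 by edgeR). With shNUF2 replicate 1 left out it was 0.16 and passed the test (adjusted p = 0.0104 by edgeR), and with shNUF2 replicate 2 left out it was 0.06. The annotation lists 3 SOD1 pseudogenes with which reads can be shared.
SOD2 stood at 0.396, 0.325 and 0.341 of SOD1 per length with shNC and at 1.66, 1.24 and 1.43 times SOD1 with shNUF2, a 4.07-fold rise of the ratio in which the groups did not overlap (exact two-sided permutation test, p = 0.1). The extracellular dismutase gene SOD3 had 0 reads in every library. CCS, the copper chaperone of SOD1, had a log2 fold change of -0.01 (95% interval -0.17 to 0.145), and CAT, the catalase that removes hydrogen peroxide, rose slightly from 38.0 ± 0.58 to 40.4 ± 0.69 FPKM (SD, n = 3 each, log2 fold change 0.13, adjusted p = 0.016 by edgeR).

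The order of the levels per length changed between the groups. With shNC it ran TXNRD1, NQO1, SOD1, HMOX1, NFE2L2, SOD2, GCLM, GCLC, KEAP1 and SRXN1, and the libraries of neighbours overlapped for HMOX1 and NFE2L2, for NFE2L2 and SOD2, and for SOD2 and GCLM. With shNUF2 it ran TXNRD1, HMOX1, SOD2, SOD1, NQO1, GCLM, GCLC, NFE2L2, KEAP1 and SRXN1, where TXNRD1 overlapped with HMOX1 and GCLC with NFE2L2. Summed over the 10 genes the level was 317 to 324 FPKM with shNC and 387 to 395 with shNUF2.

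**Figure D3:**
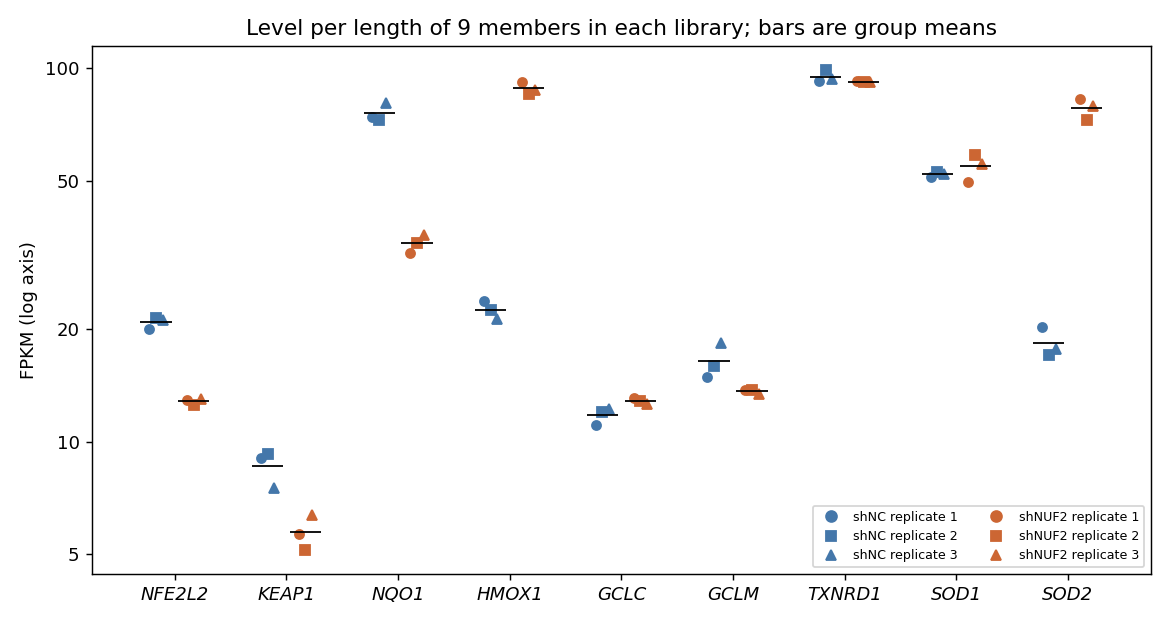
The level per length in FPKM (log axis) of the 9 genes tested is plotted for each shNC (blue) and shNUF2 (orange) library, with group means as bars. HMOX1 and SOD2 move from at most 23.8 to between 72.9 and 92.0, NQO1 falls from at least 72.7 to at most 35.7, and the points of TXNRD1 and SOD1 overlap between the groups.

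The changes of NQO1 and HMOX1 were set beside a list of 29 further NRF2 target genes, of which 26 were tested. Here 15 fell and 3 rose, against 33.8% and 33.9% of all genes tested, and the median log2 fold change was -0.37. The largest falls were those of ABCC3, a multidrug export pump (32.6 to 6.98 FPKM, log2 fold change -2.19, standard error 0.05), SLC7A11, the cystine importer that feeds glutathione synthesis (35.9 to 9.56 FPKM, -1.87, standard error 0.05), and AKR1C2, an aldo-keto reductase (14.7 to 4.28 FPKM, -1.75, standard error 0.06). SLC7A11 is also known as a target of ATF4, the factor of the amino acid response. The reads of AKR1C2 can be shared with AKR1C1 (-0.64) and AKR1C3 (-1.28), which are close paralogs and were lower too.
The genes of the list that rose were OSGIN1 (0.84), FTL (0.53), the ferritin light chain, and PRDX1 (0.40), a peroxiredoxin. GSR, the glutathione reductase, was at 19.0 FPKM with shNC and 17.1 with shNUF2 and did not pass the test (log2 fold change -0.12, adjusted p = 0.0844 by edgeR).

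Around GCLC and GCLM, 25 genes of glutathione synthesis and use were listed, and of the 22 tested 14 fell and 3 rose, against 33.8% and 33.9% of all genes tested (median log2 fold change -0.27, and -0.01 over all genes). CHAC1, which degrades glutathione and is another ATF4 target, fell from 12.4 to 1.45 FPKM (-3.06, standard error 0.15), from 342, 431 and 415 reads in shNC to 33, 48 and 43 in shNUF2. GGCT (-0.86) and GSTA4 (-0.72) followed, and GSS, the glutathione synthetase downstream of GCLC, fell by 0.27. The 3 genes that rose were GSTO1 (1.03), GLRX (1.03), the cytosolic glutaredoxin, and GSTM2 (0.86).

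Around TXNRD1 and SRXN1, 14 thioredoxin and peroxiredoxin genes were all tested, and 9 fell and 3 rose, against 33.8% and 33.9% of all genes tested (median -0.23). TXNRD2, the mitochondrial thioredoxin reductase, fell from 9.999 to 4.54 FPKM (-1.10, standard error 0.06), whereas its cytosolic relative TXNRD1 did not pass the test, and TXN2, the mitochondrial thioredoxin, fell by 0.62. PRDX2 (-0.89) and the sestrin SESN2 (-0.75) also fell. PRDX4, the peroxiredoxin of the endoplasmic reticulum, rose from 55.0 to 101 FPKM (0.91, standard error 0.05), with PRDX1 (0.40) and TXNIP (0.16), the inhibitor of thioredoxin.

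Around HMOX1, 9 genes of heme and iron handling were listed and 8 tested, of which 3 rose and 1 fell, against 33.9% and 33.8% of all genes tested. FTL rose from 1201 to 1689 FPKM (0.53), HMOX2 by 0.21 and ALAS1, the first enzyme of heme synthesis, by 0.10, and FECH, the last one, fell by 0.94 (standard error 0.11). The biliverdin reductases BLVRA (-0.14) and BLVRB (-0.08) and the ferritin heavy chain FTH1 (-0.03) did not pass the test.
Around the dismutases, 13 genes of superoxide removal and formation were listed, of which 7 were tested, 3 rose and 1 fell, against the same shares of all genes. NOX5, an NADPH oxidase, rose from a low level of 0.156 to 0.38 FPKM (1.32, standard error 0.24). CYBA, the membrane subunit shared by several NADPH oxidases, fell by 0.12.

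SOD2 is also a well-known target of NF-kB, the transcription factor of inflammatory signaling, and 12 NF-kB responsive genes were listed for comparison. All 12 were tested and all 12 rose, against 33.9% of all genes tested, and 7 of them passed a log2 fold change of 1 (median 1.11). Like the other lists, this one was chosen with earlier results of these data known, so the count cannot serve as a test. CXCL8, a neutrophil chemokine, went from 96, 98 and 91 reads in shNC to 5939, 5224 and 5380 in shNUF2 (log2 fold change 6.05, standard error 0.09), CCL20 rose by 5.08 and IL6 by 3.75. The NF-kB subunit genes NFKB1, NFKB2 and RELB and the I-kappa-B genes NFKBIA and NFKBIE rose by 0.32 (NFKB2) to 0.82 (NFKBIE). The rise of SOD2 lay between those of ICAM1 (1.18) and TNFAIP3 (3.01). The leukocyte markers given above, summing to at most 2.4 FPKM, were also higher with shNUF2. The part of NF-kB or of other cell types in the rise of SOD2 was not tested.

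**Figure D4:**
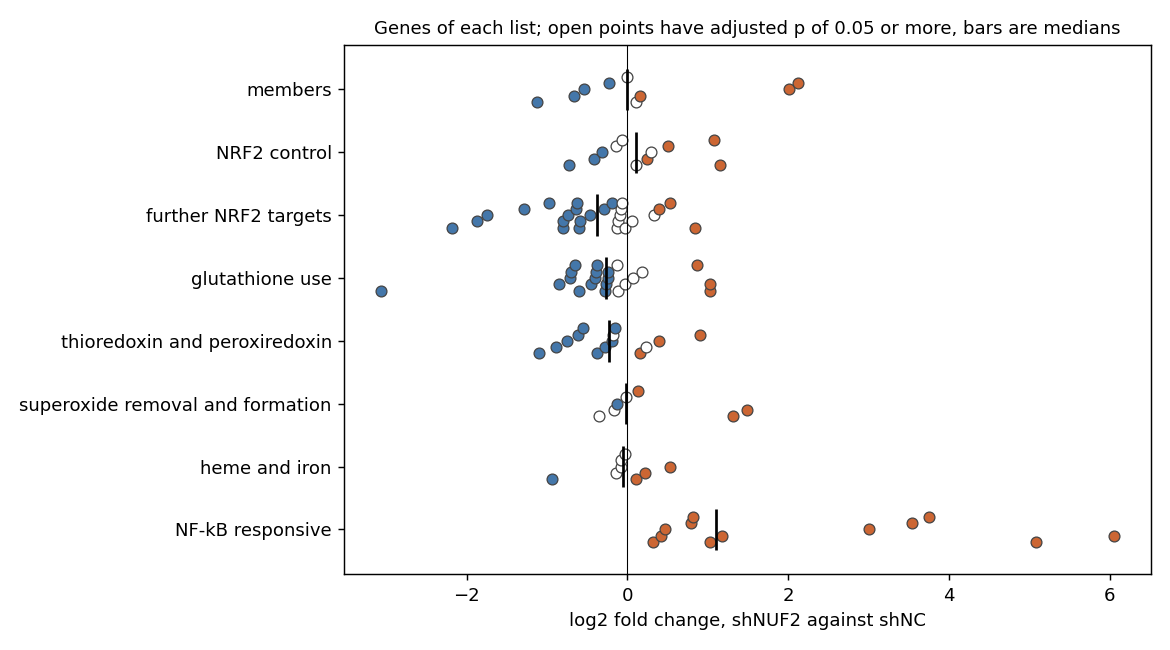
Each point is the log2 fold change of 1 gene tested, by list, filled where the adjusted p was under 0.05 (orange higher, blue lower), and bars mark list medians, with the 9 genes of the main set in the top row. The further NRF2 targets, glutathione and thioredoxin lists have medians of -0.37, -0.27 and -0.23, and the 12 NF-kB responsive genes are all above 0.

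The genes with the most similar course over the 6 libraries were found by the root mean square distance of centred log2 CPM (counts scaled by library size) among the 11775 genes whose average log2 CPM was 1 or more. For SOD2 they were FNDC11 (0.033), CLEC2B (0.06) and LAMB3 (0.06), for NQO1 they were AATK (0.043), TMEM129 (0.052) and EVA1C (0.055), and for NFE2L2 they were NUB1 (0.013), TTC37 (0.023) and ANGEL1 (0.024). With 2 groups of 3 libraries this measure mainly finds genes with a like difference between the groups, and none of the 9 is on the lists above.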

How the data were processed

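RNA of OVCAR3 cells transfected with shNC or shNUF2 was sequenced by the authors on an Illumina instrument from stranded mRNA libraries, 3 per group. The authors deposited raw read counts per gene without normalization, and FPKM values, which equal the count divided by the deposited gene length and the library total. The submitters' processing notes name cutadapt, HISAT, HTSeq and GRCh38.p13. Their settings and the annotation release are not given in the sources used here. HTSeq can drop reads that fall on overlapping genes. No fold change or p-value of the authors was used.

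The counts were fitted with edgeR 4.0.16 in R 4.3.3 (filterByExpr, TMM, quasi-likelihood test, all 6 libraries, no covariate, Benjamini-Hochberg adjustment over 12874 genes). Standard errors were obtained from each log2 fold change and its F statistic. On simulated counts with 200 of 12874 genes changed in shNUF2 against shNC, edgeR recovered 195 with 15 false calls, DESeq2 189 with 11 and limma 195 with 15. In the data 8708 genes were called, and recovery with that many genes changed was not tested. Libraries with the same replicate number did not deviate together (correlations 0.02, 0.005 and -0.03), so the number was used only as an alternative block. Precision is limited by 13057534 to 16995452 counts and 3 libraries per group.

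The genes and lists were chosen with earlier results of these data known. All 10 genes are named, and of each list the up to 3 highest and 3 lowest log2 fold changes among called genes whose average log2 CPM was 1 or more. For NFE2L2 and the highest and lowest of the 10, the 3 nearest genes are named. Others were named after their values were seen: MAFG, CUL3, RBX1, AKR1C1, AKR1C3, GSR, GSS, TXN2, SOD3, CCS, BLVRA, BLVRB, FTH1, NFKB1, NFKB2, RELB, NFKBIA, NFKBIE, ICAM1, TNFAIP3, AL121758.1 and WTAP, and the cell type markers MSLN, KRT7, KRT8, PAX8, EPCAM, MUC16, CDH1, WT1, PTPRC, COL1A1 and DCN. NUF2 is named as the targeted gene. Some genes of the lists are not reported here. Exon overlaps come from GENCODE release 29. Alternatives were other scalings, DESeq2 1.42.0, other filters, the replicate block, each library left out, and limma 3.58.1 on log2 of FPKM plus 1 or 0.1. Other calculations used Python 3.11.15 with pandas 2.3.3 and scipy 1.17.1.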

Additional observations from a re-analysis of the deposited data

How the results depend on the processing

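Each of 17 gene values and counts was recomputed under 15 alternatives. The calls and directions of NUF2, NFE2L2, KEAP1, NQO1, HMOX1, GCLM and SOD2 held under all 15. Log2 fold changes ranged from -0.70 to -0.65 for NFE2L2, -0.64 to -0.47 for KEAP1, -1.16 to -1.08 for NQO1, 1.92 to 2.05 for HMOX1, 2.03 to 2.20 for SOD2 and -0.29 to -0.15 for GCLM. GCLC lost its call with limma on log2 of FPKM plus 1 (0.12, adjusted p = 0.0642) or plus 0.1 (0.13, adjusted p = 0.0635), and leaving out 1 library gave 0.12 to 0.19, with the call lost only without shNC replicate 1. SOD1 gained a call when every library had to reach 1 CPM (0.13, adjusted p = 0.0349), and leaving out 1 library gave 0.0587 to 0.162, with a call only without shNUF2 replicate 1. TXNRD1, never called, changed sign with DESeq2 size factors (0.0002), DESeq2's Wald test (0.0002) and the filter of 1 CPM (0.014), and lay between -0.027 and 0.019 with a library left out, above 0 without shNC replicate 2 or shNUF2 replicate 2. The number of the 10 genes called higher ranged from 2 to 4, and 4 were called lower and 3 passed the log2 threshold of 1 under every alternative. Over all genes, 1212 passed that threshold upward and 536 downward, against 756 upward with the filter of 1 CPM, and 430 and 206 with limma on log2 of FPKM plus 1. The causes were not tested. A fit with the replicate number as a block gave 2.13 for SOD2, 2.01 for HMOX1, -1.12 for NQO1, -0.67 for NFE2L2, -0.54 for KEAP1, 0.16 for GCLC, -0.23 for GCLM, 0.11 for SOD1 and -0.01 for TXNRD1, and changed no call of these genes. It called 4349 genes higher and 4353 lower, against 4363 and 4345. SRXN1, tested only without a filter, had a log2 fold change of 1.10 (standard error 1.11, adjusted p = 0.412 by edgeR), with at most 7 reads in any library. Scaling moved the median of all genes by less than 0.1 on the log2 scale.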
